A study of Mus musculus with 35 samples.

Results

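Disease-associated microglia (DAM) genes are a set of genes that microglia, the resident macrophages of the brain, switch on around damage and protein deposits. The 10 genes Itgax, Trem2, Tyrobp, Cst7, Gpnmb, Spp1, Axl, Cd9, Csf1 and Lgals3 were chosen by name from the 21203 genes of the deposited table, and all 10 passed the filter on low counts that left 17131 genes. RNA from tissue near the injection, from male C57BL/6N mice (C57BL/6NCrl in the labels), 8 to 9 weeks old, was sequenced as 1 library per mouse. Injured mice had a closed head injury and on day 5 received PBS, 150000 MSCs or 150000 IL-4 MSCs by injection into the left hippocampus. MSCs are mesenchymal stem cells, here of the same strain. IL-4 MSCs are the same cells carrying a synthetic mRNA for interleukin-4, which they make for a short time. Tissue was collected at 1 week post injury (wpi), 2 days after treatment, or at 3 wpi, 16 days after it. Sham mice went through every step but the impact and had no injection, so that a difference from Sham holds injury, injection and treatment together. There were 5 mice in each group except PBS at 3 wpi, which had 4, and the 5 Sham mice were collected at week 1 (2 mice) or week 3 (3 mice). The same number before the dash in the labels marks all mice of a treated group, and what went with that number cannot be told apart from the group.

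TREM2 is a lipid-sensing receptor of microglia that signals through the adaptor TYROBP and the kinase SYK. The step from resting to disease-associated microglia is known to need it in part. In that state microglia raise genes for lysosomal degradation, lipid handling, adhesion and secreted factors while lowering markers of the resting state such as P2ry12 and Tmem119. Macrophages that enter from the blood use many of the same genes, Lgals3 and Gpnmb among them. Astrocytes, neurons or endothelial cells also express Axl, Cd9, Csf1 or Spp1. In bulk tissue, more cells of a type and more RNA per cell cannot be told apart.

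The libraries held between 29838423 and 41554322 estimated counts. The floor of 3 counts was worth between 0.0722 and 0.101 CPM (counts scaled to library size with TMM factors, the unit of all levels unless TPM is named), which covers counting error only. The labels give the tissue as left cortex. Marker genes of other regions were also present, with a summed level between 269 and 2864 CPM for 12 measured striatum genes, between 172 and 307 CPM for 6 hippocampus genes and between 22.5 and 1442 CPM for 5 choroid plexus genes. All 12 genes of resting microglia were detected in each group. In 2 libraries, Sham replicate 5 and MSCs at 3 wpi replicate 5, genes of all myeloid cells stood above those of their groups, with a mean log2 CPM of 4.73 and 5.34 against group means of 4.12 and 4.73. Counts are given without them where they change.

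At 1 wpi all 10 genes rose over Sham in each of the 3 injured groups, whereas the median gene changed by no more than 0.018 on the log2 scale in any of these comparisons. Of all genes tested, 8.73% were higher after PBS, 11.0% after MSCs and 18.4% after IL-4 MSCs. The median log2 fold change of the 10 genes was 1.61 after PBS, 1.63 after MSCs and 1.90 after IL-4 MSCs. These comparisons share the Sham mice. IL-4 MSCs were higher than PBS in 7 of the 10 genes (11.2% of all genes) and higher than MSCs in 4 of the 10 (7.66%), and in neither comparison was any of the 10 lower. MSCs and PBS differed in 0 of the 10 genes at 1 wpi by edgeR's quasi-likelihood test, which called 0.123% of all genes higher after MSCs. Of the 10, 0 had an unadjusted p under 0.05 in that test and 0 were called by DESeq2.

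**Figure D1:**
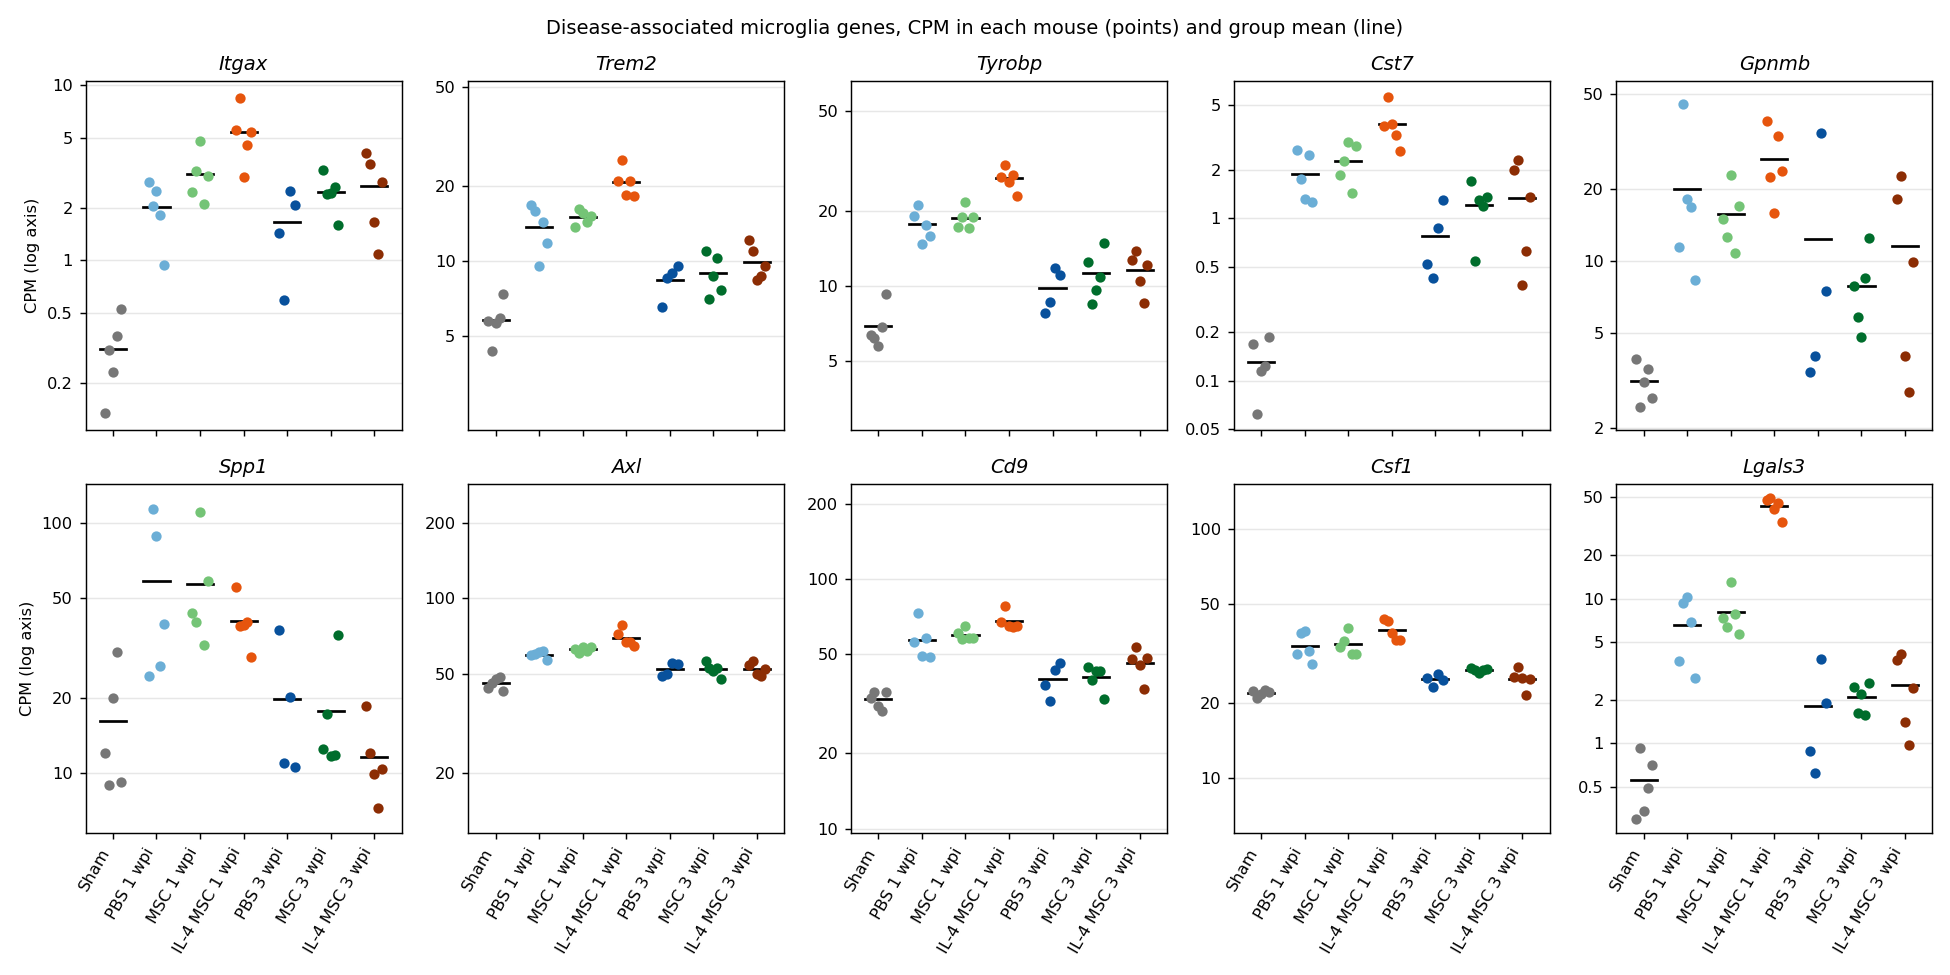
CPM on a log axis (each panel has its own range) of the 10 genes in every mouse (points) with the group mean (line), for Sham and the treated groups at 1 and 3 wpi. The 5 IL-4 MSC mice at 1 wpi lie between 33.8 and 49.7 CPM for Lgals3, above all other mice, while Spp1 and Gpnmb spread widely within groups.

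Lgals3 (ENSMUSG00000050335, chromosome 14, 47367751 to 47386160 in GRCm38, plus strand) encodes galectin-3, a secreted and lysosomal lectin of phagocytes that can act as a ligand of TREM2. It had 0.302, 0.928, 0.344, 0.492 and 0.710 CPM in the Sham mice, from 9 to 30 counts. In PBS at 1 wpi the mice had 3.71, 9.35, 10.3, 6.94 and 2.81 CPM, and after MSCs 7.34, 6.40, 13.1, 7.87 and 5.68 CPM. In IL-4 MSCs at 1 wpi they had 48.3, 49.7, 41.9, 45.4 and 33.8 CPM. Every IL-4 MSC mouse was above every PBS and MSC mouse, and every injured mouse at 1 wpi was above every Sham mouse. The log2 fold change from Sham was 3.58 after PBS (SE 0.46, adjusted p = 1.41e-06), 3.86 after MSCs (SE 0.46, adjusted p = 2.19e-07) and 6.30 after IL-4 MSCs (SE 0.45, adjusted p = 6.93e-13), the last a 78.7-fold difference. Between treatments, IL-4 MSCs were 6.59-fold above PBS (log2 fold change 2.72, SE 0.34, adjusted p = 3.31e-07) and 5.41-fold above MSCs (2.44, SE 0.33, adjusted p = 2.64e-06).

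At 3 wpi Lgals3 had 0.882, 0.622, 3.83 and 1.91 CPM after PBS, 2.46, 1.63, 2.20, 1.56 and 2.61 CPM after MSCs, and 3.75, 4.17, 1.40, 0.983 and 2.41 CPM after IL-4 MSCs. The groups at 3 wpi overlapped each other. The log2 fold change from 1 to 3 wpi was -4.11 after IL-4 MSCs (SE 0.37, adjusted p = 2.59e-10), against -1.95 after MSCs and -1.83 after PBS. The excess over MSCs was larger at 1 than at 3 wpi by 2.16 on the log2 scale (SE 0.52, adjusted p = 0.00806), and the excess over PBS by 2.28 (SE 0.55, adjusted p = 0.0107). Lgals3 was the only member past the threshold in these tests of the change between weeks, 1 of 10 in each. In them 7.86% of all genes were called against MSCs and 4.72% against PBS in either direction. Without replicate 3 of PBS at 3 wpi, the mouse with 3.83 CPM, the difference against PBS was 1.55 and missed the threshold (adjusted p = 0.158).

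Regions upstream of the RefSeq start sites were searched for letters of known factors, since the study delivered IL-4, which activates STAT6. A window was in the table for 9 of the 10 genes (2 for Spp1, no match for Tyrobp). The palindrome TTC, 4 bases of any kind, GAA, with the spacing that STAT6 prefers, was found in the 250 bases before the start of Lgals3 and Itgax and in 5.85% of 32851 windows of this length. Lgals3 held it at 2 places, beginning 238 and 225 bases before the start, and Itgax at 1 place, 127 bases before it. The Lgals3 window, in which the last 50 bases before the start are left out because another annotated transcript begins there, lies in an intron of the transcript that starts farthest upstream, at chr14:47373610-47373809 on the plus strand. The Itgax window is chr7:128129300-128129549, also on the plus strand. Both are given 5′ to 3′ from RefSeq (GRCm38.p6) with the palindromes in capitals. A match of letters does not show that a factor binds.
Lgals3: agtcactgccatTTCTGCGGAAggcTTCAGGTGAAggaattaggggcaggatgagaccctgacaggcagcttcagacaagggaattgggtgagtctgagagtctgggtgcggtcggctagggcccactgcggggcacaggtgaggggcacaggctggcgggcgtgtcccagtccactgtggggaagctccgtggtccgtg
Itgax: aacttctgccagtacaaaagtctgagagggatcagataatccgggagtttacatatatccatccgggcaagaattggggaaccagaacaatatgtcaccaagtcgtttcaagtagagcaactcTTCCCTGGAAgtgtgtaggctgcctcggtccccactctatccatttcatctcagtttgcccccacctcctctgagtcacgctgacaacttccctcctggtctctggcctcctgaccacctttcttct
The other motifs, 4 in number and none contained in another, were searched on both strands in the same windows. CACGTG, bound by MITF and TFE factors, was in 0 of the 10 windows and 6.02% of all. CATGTG, another form of their site, was in that of Cd9 and 12.3% of all. GAGGAA, the core of sites of the myeloid factor PU.1, was in those of Spp1, Axl and Trem2 and 23.3% of all. TGANTCA, with any base at N, takes in the AP-1 site TGAGTCA but also forms that are not AP-1 sites. It was in the window of Itgax as TGAGTCA, in that of Trem2 as TGAATCA, and in 6.75% of all.

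Csf1 (ENSMUSG00000014599, chromosome 3, 107741048 to 107760469) encodes a growth factor that keeps microglia alive and makes them divide through the receptor CSF1R. Its Sham mice lay close together, between 21 and 22.5 CPM, and at 1 wpi the mice lay between 28.6 and 39.0 CPM after PBS, between 31.4 and 39.9 after MSCs and between 35.7 and 43.5 after IL-4 MSCs. No injured mouse at 1 wpi overlapped with Sham, and the 3 treatments overlapped each other. Csf1 was 1.54-fold higher than in Sham after PBS, 1.57-fold after MSCs and 1.79-fold after IL-4 MSCs, with adjusted p-values of 5.08e-07, 1.67e-07 and 1.08e-10. Against PBS, IL-4 MSCs were higher by 0.21 on the log2 scale (SE 0.07, adjusted p = 0.0432). This call was lost with only these 2 groups in the fit (adjusted p = 0.115) and without replicate 1, 4 or 5 of PBS or 1 or 2 of IL-4 MSCs (adjusted p between 0.0939 and 0.115). The receptor Csf1r rose with it, from 148 CPM after PBS to 191 CPM after IL-4 MSCs at 1 wpi (log2 fold change 0.37, SE 0.08, adjusted p = 0.00132). So did the myeloid transcription factors Spi1 (1.09, adjusted p = 1.86e-05) and Irf8 (0.75, adjusted p = 1.17e-04). Il34, the other ligand of CSF1R, had a log2 fold change of -0.01 and was not called. In all, 3 of the 4 genes of this group were higher.

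Spp1 (ENSMUSG00000029304, chromosome 5, 104435118 to 104441050) encodes osteopontin, a secreted matrix protein that binds CD44 and integrins. Its mice differed widely within groups. In PBS at 1 wpi they had 24.4, 114, 88.6, 26.7 and 39.4 CPM, after MSCs 43.6, 40.2, 111, 32.5 and 58.8 CPM, and after IL-4 MSCs 55.7, 38.6, 39.0, 40.1 and 29.1 CPM. Sham mice had 12, 8.97, 19.9, 30.4 and 9.17 CPM. The 2 highest, replicates 3 and 4, were those collected at week 1. Spp1 was higher than in Sham by 1.85 on the log2 scale after PBS (SE 0.44, adjusted p = 0.00362), 1.82 after MSCs (SE 0.44, adjusted p = 0.00328) and 1.31 after IL-4 MSCs (SE 0.44, adjusted p = 0.0182, or 0.0503 without Sham replicate 2). Against the week 1 Sham mice alone these values were 1.20, 1.18 and 0.68 and none was past the threshold (adjusted p = 0.166, 0.151 and 0.368). The PBS and IL-4 MSC mice overlapped with Sham and the MSC mice did not. Spp1 was the only gene of the 10 whose estimate was below that of PBS and of MSCs after IL-4 MSCs at 1 wpi, by -0.54 (SE 0.42, adjusted p = 0.433) and -0.50 (SE 0.42, adjusted p = 0.567). Neither difference was called. Among 7 genes for receptors of osteopontin, 5 were higher after IL-4 MSCs than after PBS, among them Itgb3 (log2 fold change 1.04, adjusted p = 2.75e-10) and Cd44 (0.88, adjusted p = 0.00103).

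**Figure D2:**
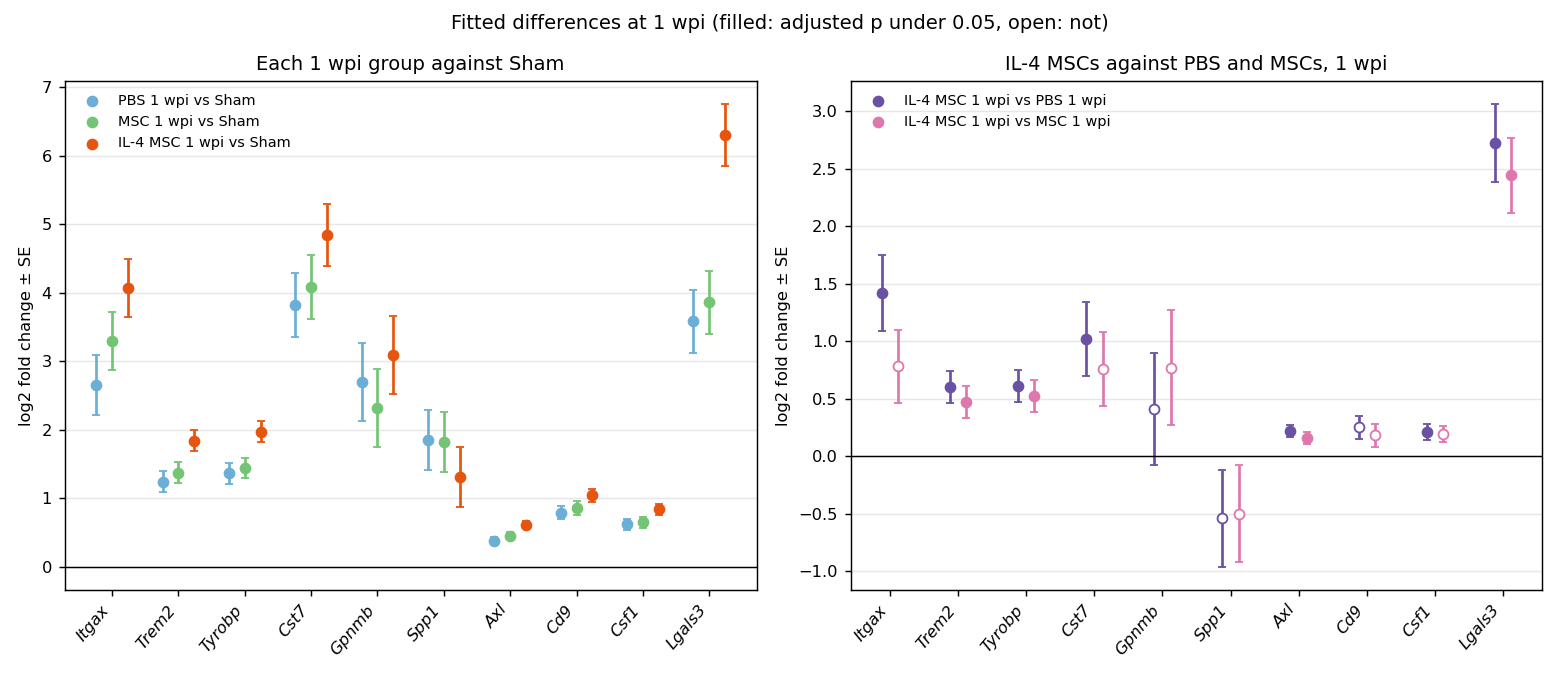
Log2 fold changes with standard errors of the 10 genes at 1 wpi, against Sham (left) and between IL-4 MSCs and the other treatments (right), where filled points had an adjusted p under 0.05. Lgals3 stands highest in both panels after IL-4 MSCs, at 6.30 against Sham and at 2.72 against PBS, and Spp1 is the only gene below 0 on the right.

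Trem2 (ENSMUSG00000023992, chromosome 17, 48346401 to 48354147) had 5.74, 4.36, 5.64, 5.91 and 7.41 CPM in Sham. At 1 wpi it had 16.7, 15.9, 9.57, 14.4 and 11.8 CPM after PBS, 13.7, 16.1, 15.6, 14.3 and 15.1 CPM after MSCs, and 20.9, 25.4, 18.4, 21 and 18.3 CPM after IL-4 MSCs. Its partner Tyrobp (ENSMUSG00000030579, chromosome 7, 30413760 to 30417585), which carries the signalling motif, had 6.38, 6.16, 5.73, 6.87 and 9.29 CPM in Sham and 27.4, 30.5, 26.0, 27.9 and 22.9 CPM after IL-4 MSCs at 1 wpi. After PBS it had 14.7 to 21.1 CPM and after MSCs 17.0 to 21.7 CPM. For both genes every IL-4 MSC mouse was above every PBS and MSC mouse. Trem2 was 3.57-fold and Tyrobp 3.91-fold higher than in Sham after IL-4 MSCs (adjusted p = 8.88e-12 and 2.15e-12), and against PBS each was 1.52-fold higher (adjusted p = 0.00219 and 0.00186). Against MSCs Trem2 was 1.39-fold and Tyrobp 1.44-fold higher (adjusted p = 0.0257 and 0.0111). The call for Trem2 was lost without replicate 1, 4 or 5 of MSCs or 2 of IL-4 MSCs, with adjusted p-values between 0.0510 and 0.0994.

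Genes linked to TREM2 and TYROBP signalling rose alongside the receptor pair. Of 15 tested, 12 were higher after PBS than in Sham, 11 after MSCs and 13 after IL-4 MSCs at 1 wpi. Against PBS, 12 were higher after IL-4 MSCs. Syk, the kinase recruited by TYROBP, had 8.32 CPM after PBS and 18.7 CPM after IL-4 MSCs (log2 fold change 1.17, SE 0.15, adjusted p = 4.99e-07). The adaptor Lat2, the kinase Btk and the phosphatase Ptpn6 rose by 1.12, 0.98 and 0.80 on the log2 scale. Of 7 other receptors that pair with TYROBP, 5 passed the filter on low counts. Sirpb1a and Pilrb1, of the 7, were at or under 3 counts in every Sham library. All 5 tested were higher than in Sham in each injured group at 1 wpi. Cd300lb was the one that was also higher after IL-4 MSCs than after PBS (2.14, SE 0.39, adjusted p = 1.58e-04). The median log2 fold change of the 15 pathway genes between IL-4 MSCs and PBS was 0.52, against -0.004 for all genes. It was below the 0.75 of 10 genes of all myeloid cells, of which 9 were higher.

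Axl (ENSMUSG00000002602, chromosome 7, 25757273 to 25788705) is a receptor of the TAM family with a role in the uptake of dying cells. It had 42.4 to 48.4 CPM in Sham, 56.6 to 61.4 CPM after PBS, 60.5 to 63.8 CPM after MSCs, and 71.7, 78.1, 66.7, 66.6 and 64.5 CPM after IL-4 MSCs at 1 wpi. The IL-4 MSC mice were above all others, the lowest of them by less than 1 CPM. Axl was higher than in Sham by 0.38, 0.45 and 0.61 on the log2 scale after PBS, MSCs and IL-4 MSCs (SE 0.05 each, adjusted p = 1.36e-06, 5.82e-08 and 1.10e-11). IL-4 MSCs were 1.17-fold above PBS (adjusted p = 0.00120) and 1.11-fold above MSCs (adjusted p = 0.0397). The second call was lost with only these groups in the fit (adjusted p = 0.0617) and without replicate 1, 2 or 5 of MSCs or 1 or 2 of IL-4 MSCs (adjusted p between 0.0555 and 0.129). Of the 4 other genes of the family at 1 wpi, 2 were higher and 1 lower than in Sham after PBS and after IL-4 MSCs, and 3 were higher and 0 lower after MSCs. The receptor Mertk was higher in all 3 groups, and the receptor Tyro3 was lower after PBS and IL-4 MSCs and not called after MSCs (log2 fold change -0.20, adjusted p = 0.139). Of the ligands, Pros1 rose over Sham by 1.22 on the log2 scale after IL-4 MSCs, while Gas6 had 0.06 and was called only after MSCs (0.14, adjusted p = 0.0285).

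Itgax (ENSMUSG00000030789, chromosome 7, 128129547 to 128150657) encodes CD11c, the integrin chain by which disease-associated microglia and dendritic cells are often sorted. It had 0.134, 0.309, 0.229, 0.369 and 0.525 CPM in Sham. At 1 wpi the mice had 2.79, 2.04, 2.47, 1.82 and 0.938 CPM after PBS, 2.44, 3.25, 4.78, 2.10 and 3.03 CPM after MSCs, and 5.52, 8.44, 2.97, 4.52 and 5.43 CPM after IL-4 MSCs. All IL-4 MSC mice were above all PBS mice and overlapped with MSC mice. Against Sham, Itgax was 6.29-fold higher after PBS, 9.78-fold after MSCs and 16.8-fold after IL-4 MSCs (adjusted p = 4.78e-05, 8.45e-07 and 1.76e-09). IL-4 MSCs were 2.68-fold above PBS (log2 fold change 1.42, SE 0.33, adjusted p = 0.00255). The difference from MSCs was not called (0.78, SE 0.32, adjusted p = 0.150). Itgam, the CD11b chain shared by all microglia and many blood leukocytes, did not follow, at 58.2 CPM after IL-4 MSCs against 58.0 CPM after PBS (log2 fold change 0.00, adjusted p = 0.991). Itgal and the common chain Itgb2 were higher after IL-4 MSCs than after PBS by 1.48 and 0.97 (adjusted p = 6.91e-04 and 0.00167). The counts of Itgax and Gpnmb were not all whole, which marks reads shared with transcripts of other genes.

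Cd9 (ENSMUSG00000030342, chromosome 6, 125460266 to 125494791) is a tetraspanin of membranes and exosomes. It had 29.6 to 35.3 CPM in Sham. Levels at 1 wpi were 55.9, 72.7, 49.0, 58.2 and 48.7 CPM after PBS, 57.4 to 64.9 CPM after MSCs and 64.1 to 78.1 CPM after IL-4 MSCs. No injured mouse overlapped with Sham, and Cd9 was 1.73-fold, 1.82-fold and 2.06-fold higher there (adjusted p = 1.69e-06, 2.73e-07 and 9.33e-10). IL-4 MSCs and PBS overlapped through replicate 2 of PBS and were not called different (log2 fold change 0.25, SE 0.10, adjusted p = 0.0866). Without that mouse the value was 0.38 and past the threshold (adjusted p = 0.00666). Of 8 related tetraspanins and partners, 5 were higher after IL-4 MSCs than after PBS, led by the leukocyte tetraspanins Cd53 (1.07, adjusted p = 1.90e-05) and Cd37 (0.80, adjusted p = 6.42e-05).

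Gpnmb (ENSMUSG00000029816, chromosome 6, 49036546 to 49070929), a lysosomal and membrane glycoprotein of lipid-laden macrophages, had 2.44 to 3.89 CPM in Sham. Its mice at 1 wpi had 11.4, 45.2, 18.2, 16.8 and 8.27 CPM after PBS, 14.9, 12.6, 22.8, 10.8 and 17.0 CPM after MSCs, and 38.6, 22.3, 15.9, 33.1 and 23.8 CPM after IL-4 MSCs. Every injured mouse at 1 wpi was above every Sham mouse, and the treatments overlapped. Its fold change from Sham was 6.44 after PBS, 5.01 after MSCs and 8.53 after IL-4 MSCs (adjusted p = 0.00114, 0.00369 and 5.84e-05). IL-4 MSCs were not called different from PBS (log2 fold change 0.41, SE 0.49, adjusted p = 0.650) or MSCs (0.77, SE 0.50, adjusted p = 0.423). Against the week 1 Sham mice alone, MSCs differed by 2.23 and missed the threshold (adjusted p = 0.0572). Among the MiT/TFE transcription factors, which are known to drive Gpnmb and lysosomal genes, Tfec rose from 0.181 CPM after PBS to 2.74 CPM after IL-4 MSCs (log2 fold change 3.92, SE 0.34, adjusted p = 4.09e-10). Mitf rose by 0.23 on the log2 scale (adjusted p = 0.0123), while Tfe3 and Tfeb had 0.10 and 0.19 and were not called.

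Cst7 (ENSMUSG00000068129, chromosome 2, 150570415 to 150578944) encodes cystatin F, an inhibitor of lysosomal cathepsins. Sham mice had 0.168, 0.0619, 0.115, 0.123 and 0.185 CPM, which were only 2 to 6 counts, so its fold changes from Sham are poorly bounded. At 1 wpi it had 2.63, 1.75, 1.32, 2.45 and 1.26 CPM after PBS, 1.86, 2.25, 2.94, 1.43 and 2.78 CPM after MSCs and 3.72, 5.62, 3.81, 3.27 and 2.61 CPM after IL-4 MSCs. Every injured mouse was above every Sham mouse, with log2 fold changes of 3.82, 4.08 and 4.84 (SE 0.47, 0.47 and 0.45, adjusted p = 7.28e-07, 1.28e-07 and 2.60e-10). IL-4 MSCs were 2.03-fold above PBS (adjusted p = 0.0256) with an overlap of the lowest IL-4 MSC and the highest PBS mouse. This call was lost without replicate 3 or 5 of PBS or 2 of IL-4 MSCs, with adjusted p-values between 0.0673 and 0.104. Cathepsin C (Ctsc), a target of cystatin F, rose from 21.8 CPM after PBS to 60.2 CPM after IL-4 MSCs (log2 fold change 1.46, SE 0.16, adjusted p = 4.02e-08).

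Levels of different genes were compared in TPM, which allows for transcript length. In Sham the order was Cd9 with a mean of 64.1 TPM, Tyrobp with 36.6, Spp1 with 27.0, Axl with 23.1, Csf1 with 13.6 and Trem2 with 13.2 TPM. Below them were Gpnmb with 2.11, Lgals3 with 1.54, Cst7 with 0.333 and Itgax with 0.200 TPM. In IL-4 MSCs at 1 wpi Lgals3, at 103 ± 13 TPM (SD, n = 5), stood below Tyrobp at 146 ± 13.5 and Cd9 at 135 ± 10.2 and above Spp1 at 69.4 ± 15.8 TPM. Among neighbours in the Sham order, the mice overlapped for Tyrobp and Spp1, Spp1 and Axl, Csf1 and Trem2, Gpnmb and Lgals3, and Cst7 and Itgax. After IL-4 MSCs they overlapped for Tyrobp and Cd9 and for Lgals3 and Spp1. The 4 genes with the lowest levels in Sham, Itgax, Cst7, Lgals3 and Gpnmb, had the largest fold changes from Sham after IL-4 MSCs at 1 wpi.

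Since all 10 genes rose at 1 wpi together with myeloid genes in general, each was also described relative to 10 genes of all myeloid cells (Csf1r, Aif1, Itgam, Ptprc, Fcer1g, C1qa, C1qb, C1qc, Laptm5 and Ctss), as the log2 CPM of the gene minus the mean log2 CPM of these. The myeloid genes themselves were higher than in Sham by 1.17 after PBS, 1.24 after MSCs and 1.89 after IL-4 MSCs at 1 wpi, and by 0.25, 0.60 and 0.53 at 3 wpi. All but Spp1 fell into 3 patterns, given here with no test. Relative to myeloid genes, Lgals3, Cst7, Itgax and Gpnmb were above Sham in all injured groups, by 4.36, 2.46, 1.99 and 1.13 after IL-4 MSCs at 1 wpi. Trem2 and Tyrobp stayed within 0.28 of Sham in every group and so moved with the myeloid genes. Axl, Cd9 and Csf1 rose less than the myeloid genes at 1 wpi and were 1.29, 0.85 and 1.06 below Sham on this scale after IL-4 MSCs at 1 wpi. Spp1 had no common direction.

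**Figure D3:**
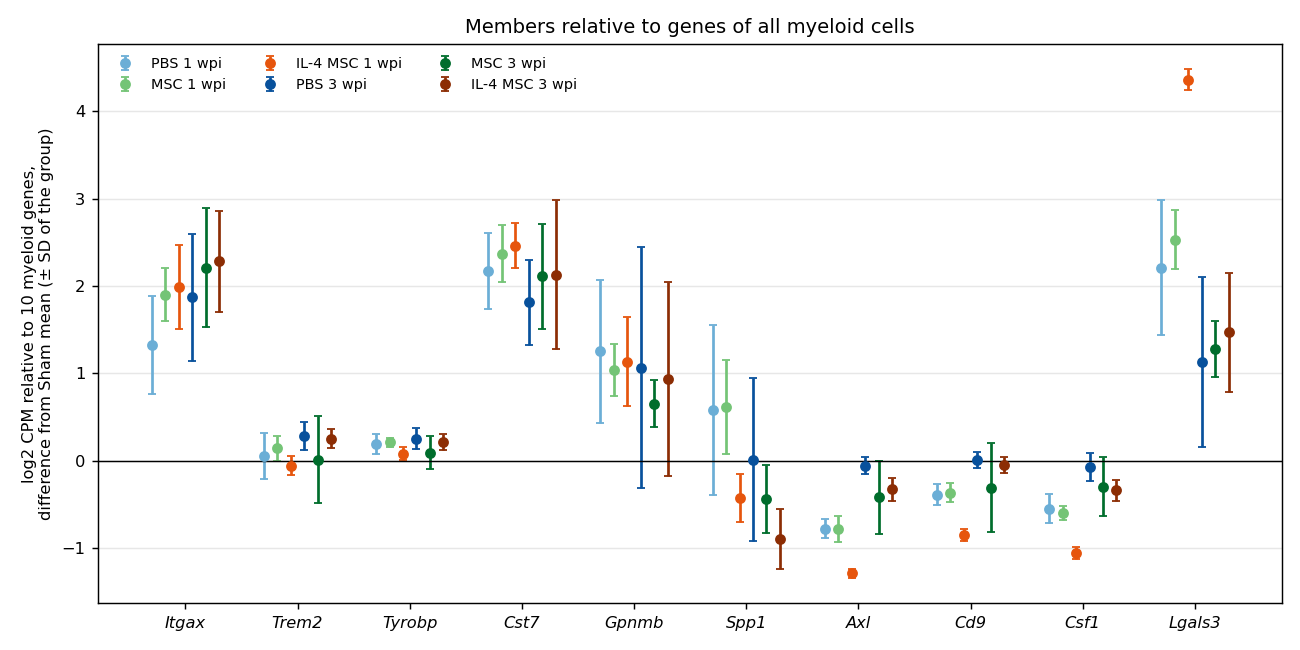
Mean log2 CPM of each gene relative to 10 myeloid genes, as the difference from the Sham mean, in the 6 injured groups (bars are the SD of the group over 5 mice, or 4 after PBS at 3 wpi). Lgals3 after IL-4 MSCs at 1 wpi is at 4.36, apart from 2.21 after PBS and 2.53 after MSCs, whereas Cst7 lies between 1.81 and 2.46 in all 6 groups.

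On this scale Lgals3 was higher after IL-4 MSCs than after the other treatments at 1 wpi, with -0.57 ± 0.12 after IL-4 MSCs, -2.72 ± 0.77 after PBS and -2.40 ± 0.34 after MSCs (SD, n = 5). These mice did not overlap. Axl, Cd9 and Csf1 were lower in every IL-4 MSC mouse than in every PBS and MSC mouse, Axl at 0.10 ± 0.05 against 0.61 ± 0.11 after PBS and 0.60 ± 0.15 after MSCs. Cst7 had -4.11 ± 0.26, -4.40 ± 0.44 and -4.20 ± 0.33 in the same groups, which overlapped. Itgax had -3.65 ± 0.48 after IL-4 MSCs and -3.75 ± 0.30 after MSCs. The choice of reference mattered for the weaker genes. In IL-4 MSCs at 1 wpi 5 of the 10 genes were above Sham relative to all myeloid genes, and all 10 when 12 genes of resting microglia were the reference. These counts go by sign alone, with no test, and take in Tyrobp, which was only 0.08 above Sham relative to myeloid genes. The relative level of Itgax was 2.21 above Sham after MSCs and 2.28 after IL-4 MSCs at 3 wpi, against 1.90 and 1.99 at 1 wpi, while that of Lgals3 went from 4.36 to 1.47 after IL-4 MSCs.

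Genes of resting microglia were also higher than in Sham. Of 12, 9 were higher than in Sham after PBS, 10 after MSCs and 9 after IL-4 MSCs at 1 wpi. Their summed level was between 432 and 566 CPM after PBS and between 433 and 543 CPM after IL-4 MSCs. Against PBS, Sall1 and Selplg were higher by 0.23 each on the log2 scale and Fcrls was lower (-0.57), and the other 9 were not called. P2ry12 and Tmem119 had 32.3 and 25.1 CPM after IL-4 MSCs and 35.3 and 24.8 CPM after PBS (adjusted p = 0.405 and 0.929). Genes of monocyte-derived and border macrophages, by contrast, had a summed level between 103 and 158 CPM in Sham, between 170 and 243 after PBS, between 226 and 309 after MSCs and between 576 and 845 CPM after IL-4 MSCs at 1 wpi. Against PBS, 10 of 12 were higher after IL-4 MSCs. The list includes Mrc1, which encodes CD206, a marker that the paper describes as strongly raised on macrophages by IL-4. More macrophages and more RNA of these genes per cell cannot be told apart here. Whether other genes of the list rise with IL-4 or come from the injected cells was not tested. In Sham Ly6c2, a gene of blood monocytes, was at or under 3 counts in every library. T and NK cell genes were also raised there, 5 of 9 tested being higher than after PBS, with summed levels between 8.13 and 15.1 CPM against 3.44 and 5.48 CPM after PBS. Of the neutrophil genes 4 of 7 tested were higher than after PBS (Retnlg, Mmp8, Mmp9 and Csf3r, named here as the whole of that count), with a median log2 fold change of 0.54. Their summed levels were between 35.2 and 47.4 CPM against 23.3 and 44.5 CPM, and the defining gene Ly6g was at or under 3 counts in every library. Of the dendritic cell genes 2 of 8 were higher than after PBS. Their part in the rise of the 10 genes was not tested. Mesenchymal genes, which the injected cells also express, had summed levels between 125 and 213 CPM after PBS, between 231 and 665 CPM after MSCs and between 308 and 423 CPM after IL-4 MSCs at 1 wpi. Of 9 tested, 6 were higher after IL-4 MSCs than after PBS and 2 than after MSCs, and 6 were called in the test of the change between weeks against PBS and 0 in that against MSCs. The part of the injected cells in the levels of the 10 genes was not tested.

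**Figure D4:**
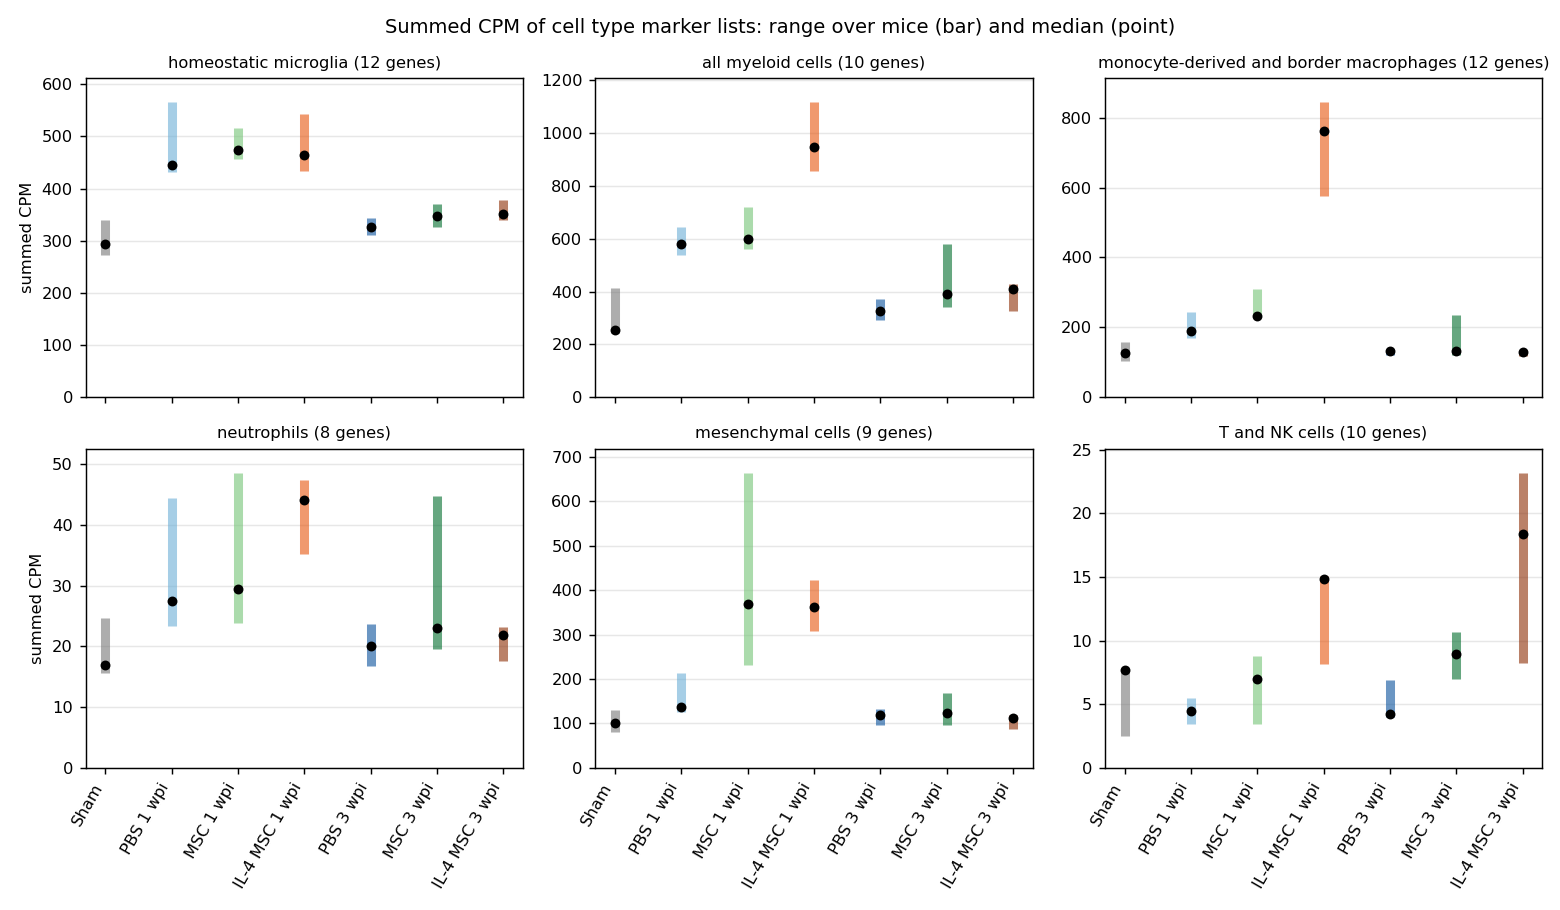
Summed CPM of 6 lists of cell type markers in each group, with the range over mice (bar) and the median (point). Genes of resting microglia have medians of 446 CPM after PBS, 474 after MSCs and 465 after IL-4 MSCs at 1 wpi, while genes of monocyte-derived and border macrophages have medians of 190, 232 and 762 CPM. The macrophage list includes Mrc1, whose product CD206 is raised on macrophages by IL-4 itself. Whether its other genes rise with IL-4 or come from the injected cells was not tested.

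A wider list of 29 DAM genes mostly followed the 10. At 1 wpi 21 of the 29 were higher than in Sham after PBS (8.73% of all genes), 22 after MSCs (11.0%) and 24 after IL-4 MSCs (18.4%). After IL-4 MSCs 2 were lower than in Sham. Compared with PBS, 18 were higher (11.2% of all genes) and 2 lower after IL-4 MSCs. The largest differences between IL-4 MSCs and PBS were those of the chemokine Ccl6 (28.7 against 3.31 CPM, log2 fold change 3.11, adjusted p = 1.10e-10) and of Clec7a, the beta-glucan receptor dectin-1 (30.9 against 3.75 CPM, 3.04, adjusted p = 1.44e-08). They were followed by the class I histocompatibility gene H2-D1 (2.03), the actin-capping gene Capg (1.81), the lysozyme gene Lyz2 (1.67), B2m (1.63), the lysosomal gene Cd68 (1.34) and Ch25h, an oxysterol synthase (1.26, adjusted p = 0.0446). Lpl and Cadm1 were lower, with log2 fold changes of -0.38 and -0.27, and the lipid carrier Apoe had a log2 fold change of 0.05 and was not called. Other galectins and Lgals3bp, which encodes a galectin-binding protein, rose as Lgals3 did but by less. Lgals1 and Lgals3bp were each 1.41 higher on the log2 scale after IL-4 MSCs than after PBS, and 4 of the 5 genes tested were called.

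By 3 wpi most of the 10 genes were lower than at 1 wpi. From 1 to 3 wpi 8 of the 10 genes fell after PBS (4.90% of all genes), 7 after MSCs (4.93%) and 9 after IL-4 MSCs (16.6%), all except Gpnmb in the last. The median log2 fold change was -0.70, -0.74 and -1.14, against 0.009, 0.012 and 0.025 for all genes. Itgax was not called lower after PBS or MSCs (log2 fold change -0.27, adjusted p = 0.797, and -0.35, adjusted p = 0.653). It kept much of its rise over Sham. Its log2 fold change from Sham at 1 and 3 wpi was 2.65 and 2.38 after PBS and 3.29 and 2.94 after MSCs. After IL-4 MSCs it was 4.07 and 3.05. Gpnmb at 3 wpi had 3.42, 4.00, 34.2 and 7.46 CPM after PBS, and without replicate 3, the highest, its log2 fold change from 1 wpi was -2.03 and past the threshold (adjusted p = 0.0231), against -0.69 with it (adjusted p = 0.585). The falls of Spp1 after PBS and MSCs were -1.56 and -1.68 (adjusted p = 0.0438 and 0.0155). They were lost without replicate 2 or 3 of PBS at 1 wpi, 2, 3 or 4 of PBS at 3 wpi, or replicate 3 of MSCs at either week (adjusted p between 0.0511 and 0.206). For Cst7 the fall after PBS was -1.28 (adjusted p = 0.0455), lost without any of 6 of the 9 mice (replicates 1, 2 and 4 at 1 wpi and 1, 2 and 3 at 3 wpi, adjusted p between 0.0746 and 0.192). Axl lost its fall of -0.20 after PBS without replicate 1 or 2 at 3 wpi (adjusted p = 0.108 and 0.0966), and Itgax its fall of -1.02 after IL-4 MSCs without replicate 2 at 1 wpi or 4 at 3 wpi (adjusted p = 0.0699 and 0.0522). In the tests of whether treatments fell unequally, MSCs against PBS gave 0 of 10 genes by edgeR (0% of all genes), with 0 of the 10 at an unadjusted p under 0.05 and 0 by DESeq2.

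Against Sham, 1 of the 10 genes was still higher after PBS at 3 wpi (0.0233% of all genes), 5 after MSCs (1.11%) and 7 after IL-4 MSCs (2.76%). Itgax was the gene after PBS, at 1.43, 0.590, 2.48 and 2.08 CPM, all above Sham (log2 fold change 2.38, SE 0.46, adjusted p = 0.0413). The call was lost when any mouse but replicate 2 of PBS was left out (adjusted p between 0.0674 and 0.421) and under 5 other alternatives. Itgax, Trem2, Tyrobp and Cst7 were higher in both MSCs and IL-4 MSCs, joined by Csf1 after MSCs and by Axl, Cd9 and Lgals3 after IL-4 MSCs. Itgax had 3.27, 2.38, 2.42, 2.62 and 1.58 CPM after MSCs and 4.12, 3.54, 1.66, 1.09 and 2.81 CPM after IL-4 MSCs, 7.65-fold and 8.28-fold above Sham (adjusted p = 1.28e-04 and 1.46e-04). Cst7 had 1.71, 0.544, 1.29, 1.19 and 1.35 CPM after MSCs and 1.98, 2.28, 0.390, 0.628 and 1.35 CPM after IL-4 MSCs, with log2 fold changes of 3.19 and 3.32 (adjusted p = 2.32e-04 and 1.86e-04). Neither gene overlapped with Sham in either group, and both kept their calls in these 2 groups under all alternatives run, among them leaving out each mouse. Of the others, Csf1 after MSCs lost its call without any mouse but replicate 3 of MSCs and Trem2 without Sham replicate 1, 2, 3 or 4 or replicate 1, 4 or 5 of MSCs, with adjusted p-values between 0.0508 and 0.129, and Tyrobp without Sham replicate 3 (0.0560) or replicate 5 of MSCs (0.0907). After IL-4 MSCs, Axl lost its call without Sham replicate 1 or 5 or replicate 1 or 5 of its group, with adjusted p-values between 0.0572 and 0.0749. Against the week 3 Sham mice alone, 2 genes were called after MSCs and 4 after IL-4 MSCs. Without the 2 libraries high in myeloid genes 0 were called after PBS, 4 after MSCs and 6 after IL-4 MSCs. The shares of all genes given above belong to the first counts of 1, 5 and 7 and not to these.

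Between treatments at 3 wpi, 0 of the 10 genes were higher after IL-4 MSCs than after PBS (2.17% of all genes) or than after MSCs (2.29%), and 0 after MSCs than after PBS (0.0817%), by edgeR, and 0 by DESeq2 in each. In each of these comparisons 0 of the 10 had an unadjusted p under 0.05. The 2 mice of IL-4 MSCs with the highest Lgals3, replicates 1 and 2, were also the 2 highest for Itgax, Cst7, Trem2 and Gpnmb, where they had 18.1 and 22.6 CPM against 2.81 to 9.84 CPM in the other mice. Striatum markers were between 444 and 2864 CPM in this group and between 282 and 626 CPM after PBS, with 9 of 12 higher than in Sham and 11 of 12 higher than after PBS. With their score as a covariate, 4 members were called higher than Sham in place of 7, and the share of all genes in that fit is not given here.

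Over the 34 libraries, which share their group structure, the 10 genes varied together except Spp1. Pearson's r of log2 CPM was highest between Trem2 and Tyrobp (0.96) and lowest between Spp1 and Itgax (0.39). Apart from Csf1, with which its r was 0.79, Spp1 had an r of at most 0.66 with the other members. Outside the 10, the genes closest to their mean were Mpeg1, a perforin-like gene of macrophages (r = 0.968), Vim (0.963), Flnc (0.961), Bcl2a1b (0.961) and Gfap, a gene of reactive astrocytes (0.960). The closest gene by Pearson's r was C1qb for Tyrobp (0.983), Capg for Lgals3 (0.975), Cd44 for Csf1 (0.970), Pdlim4 for Cd9 (0.960), C4b for Cst7 (0.954) and Itgax (0.913), Cd68 for Trem2 (0.946), Cd63 for Axl (0.937), Lyz2 for Gpnmb (0.929) and Igfbp3 for Spp1 (0.864). These names depend on the measure. By Spearman's rho the closest gene was the same for Tyrobp, Trem2, Gpnmb and Csf1 and another for the remaining 6, among them Clec7a for Itgax (0.934) and Cst7 (0.948) and Vim for Lgals3 (0.976), and Cd84 was closest to the mean (0.975).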

How the data were processed

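The authors trimmed reads with cutadapt 2.4, assigned them with kallisto 0.46 to protein-coding GENCODE vM23 transcripts (GRCm38) and deposited, per gene, estimated counts and TPM, both used here. The deposited columns of their own comparisons (p-values, q-values and fold changes) were not used, and a mouse of PBS at 3 wpi that they excluded was not analysed here. Estimated counts were rounded and fitted with edgeR 4.0.16 (filterByExpr, TMM, quasi-likelihood test, two-sided) in 1 fit of 34 libraries over 17131 genes, with Benjamini-Hochberg adjustment over all genes and a threshold of 0.05. The fit was tested on simulated data. Log2 CPM used a prior count of 2. The members, gene lists and tests were chosen with earlier results of these data known. Named besides the 10 members are, of each pathway list, the called genes with the largest difference between IL-4 MSCs and PBS at 1 wpi (at most 4, or 8 for the wider list), genes given to complete a list's count, and the genes most alike. Replicate numbers were taken from the labels, and deviations from group means correlated by a median of 0.01 in 99 pairs with the same number, so they were not used as pairs. Alternatives were DESeq2 1.42.0, RLE size factors, no filter, only the groups compared, Sham mice of the same week, a replicate block, a striatum score, a log2 fold change of at least 1, each mouse left out, and, chosen after seeing the data, 2 libraries left out. Gene positions are from GENCODE vM21.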

Additional observations from a re-analysis of the deposited data

Results flagged for a closer look

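The excess of Lgals3 in IL-4 MSCs differed between the weeks, with a difference of 2.28 on the log2 scale against PBS (adjusted p = 0.0107) and 2.16 against MSCs (adjusted p = 0.00806), by the test of the change between weeks in edgeR. At 1 wpi the excess was 2.72 and 2.44, and at 3 wpi 0.44 and 0.28. Cd9 in replicate 2 of IL-4 MSCs at 1 wpi, with 78.1 CPM, stood above the other 4 mice of its group, which lay close together at 64.1 to 67.4 CPM. The gap to the next mouse took a share of 0.750 of the group's spread, on a scale other than the CPM printed here. It was the only value marked by this share among 70 groups of values, where chance marks about 1 in 20. Values set farther apart in CPM, such as Gpnmb in replicate 3 of PBS at 3 wpi (34.2 against 7.46 for the next mouse), were not marked.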

How the results depend on the processing

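No call of a member changed its direction under any alternative run. For PBS against Sham at 3 wpi, 1 gene was higher, and 2 were with DESeq2 and 0 with the striatum score, the replicate block, week 3 Sham mice, only the groups compared, or the 2 libraries left out. For MSCs against Sham at 3 wpi, 5 became 2 with week 3 Sham mice or a log2 fold change of at least 1. For IL-4 MSCs against Sham at 3 wpi, 7 became 4 with the striatum score, week 3 Sham mice or only the groups compared, and 3 with a log2 fold change of at least 1. That limit left 3 of 7 genes against PBS and 1 of 4 against MSCs in IL-4 MSCs at 1 wpi, and 3 and 2 of the falls in PBS and MSCs, and 5 of 8 falls in PBS remained with only the groups compared. The cause was not tested. Counts of all genes called also moved in some comparisons under these settings, and are pooled below over comparisons and directions. Pooled in this way, they cannot show whether a change in a member count was particular to the 10 genes. With only the groups compared 19 all-gene counts moved and 17 stayed. With Sham mice of the same week 5 moved and 7 stayed, and with the striatum score 7 moved and 29 stayed. Leaving out 1 mouse moved 149 and left 259. The test of the change between weeks gave 2 genes against PBS with DESeq2 or the 2 libraries left out, and 2 against MSCs with the replicate block. Besides this count and that of PBS against Sham at 3 wpi, the block changed no count by over 1.5 times. Relative to resting microglia genes, 10 in place of 5 members were above Sham in IL-4 MSCs at 1 wpi, by sign alone and with no test. Leaving out 1 mouse at a time, the members higher were 9 to 10 in IL-4 MSCs against Sham at 1 wpi, 0 to 1, 2 to 5 and 6 to 8 after PBS, MSCs or IL-4 MSCs against Sham at 3 wpi, 5 to 8 in IL-4 MSCs against PBS and 2 to 5 against MSCs at 1 wpi. Those that fell were 5 to 8, 6 to 7 and 8 to 10 after PBS, MSCs or IL-4 MSCs, and the change between weeks gave 0 to 2 against PBS and 1 to 2 against MSCs. Members above Sham relative to myeloid genes, by sign alone, were 6 to 7, 7 and 5 to 6 after PBS, MSCs or IL-4 MSCs at 1 wpi and 6 to 9, 5 to 6 and 6 to 7 at 3 wpi. At 2 to 6 counts, depth limits Cst7 in Sham.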
